A study of Drosophila melanogaster with 6 samples.

Results

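The genes described here encode the machinery that releases neurotransmitter at the presynaptic terminal. They are Syn, Csp, Syt1 and nSyb of the synaptic vesicle, Syx1A and Snap25 of the plasma membrane, unc-13 and brp of the active zone, and the channel genes cac and para. Their probe sets were taken by gene symbol, and a probe set counted when the platform annotation gave it exactly 1 gene. Of the 10 genes, 8 had such a probe set, 12 probe sets in all among 18769 on the array without controls. Syt1 and Syx1A had none listed and were not analysed here. Of the 12 probe sets, 10 passed the filter on low signal and were tested, and all 8 genes kept at least 1.

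Heads of male Drosophila melanogaster were compared between 3 arrays of single-housed males, kept 1 fly per vial, and 3 arrays of group-housed males, kept 10 flies per vial. All males were housed for 6 days from eclosion and frozen in the same late-afternoon hour. Each array carried RNA of 20 pooled heads, and the series calls the samples of a group biological replicates and single-housed males the more aggressive. No strain, allele or agent is named for either group in the labels. The comparison asks whether social experience went with a different level of these transcripts in the head.

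At a chemical synapse, an arriving action potential, carried by sodium channels, opens calcium channels at the active zone. Calcium then triggers fusion of vesicles that were docked and primed there. Fusion is driven by SNARE proteins, with synaptobrevin on the vesicle and syntaxin and SNAP-25 on the plasma membrane, and synaptotagmin is the calcium sensor. A scaffold protein clusters the calcium channels, and chaperones keep the SNARE proteins folded. In the fly, mutations of several of these genes give temperature-sensitive paralysis or early death, and the genes are used as markers of neurons.

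The arrays differed in scale as deposited, with median intensities from 24.2 to 31.6, so they were quantile normalized on the log2(intensity + 16) scale. Correlations between arrays ran from 0.977 to 0.989 across probe sets after normalization. The 3′ minus 5′ signal of the GAPDH control probe sets, a measure of RNA integrity and labelling, was 0.72 to 1.08 on single-housed and 0.78 to 1.11 on group-housed arrays in log2 units. The 2 groups overlapped in it, as they did for actin and eIF-4a. For actin, group-housed replicate 3 had the highest value, 1.39 against 0.72 to 1.19 on the other 5 arrays. That array was not the highest for GAPDH or eIF-4a. The photoreceptor arrestin gene Arr1 was bright on every array, with mean log2 signals of 12.83 on single-housed and 12.88 on group-housed arrays. Every difference below is single-housed minus group-housed on the normalized log2 scale, so a negative value is a lower signal in single-housed heads. Tests are limma fits with Benjamini-Hochberg adjustment over all 13138 probe sets tested, with a threshold of adjusted p 0.05. Signals of different probe sets are not comparable with each other, because each has its own hybridization efficiency.

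None of the 10 tested probe sets of the release machinery passed the threshold in limma (adjusted p 0.594 to 0.996), against 0.0152% of all probe sets tested. At unadjusted p 0.05 there was 1 of the 10, that of Syn, against 8.24% of all probe sets, which is close to the share over the whole array. By value, and as seen in the data rather than set beforehand, the 8 genes formed a lower and a near-zero set. Syn, unc-13, cac and para lay between -0.28 and -0.22, and Csp, Snap25, nSyb and brp between -0.08 and 0.01. For 0 of the 12 probe sets were the 2 groups of arrays free of overlap, against 14.2% of all those tested. Even if a lower signal were established, fewer neurons or synapses and less transcript per neuron cannot be told apart in bulk head RNA.

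**Figure D1:**
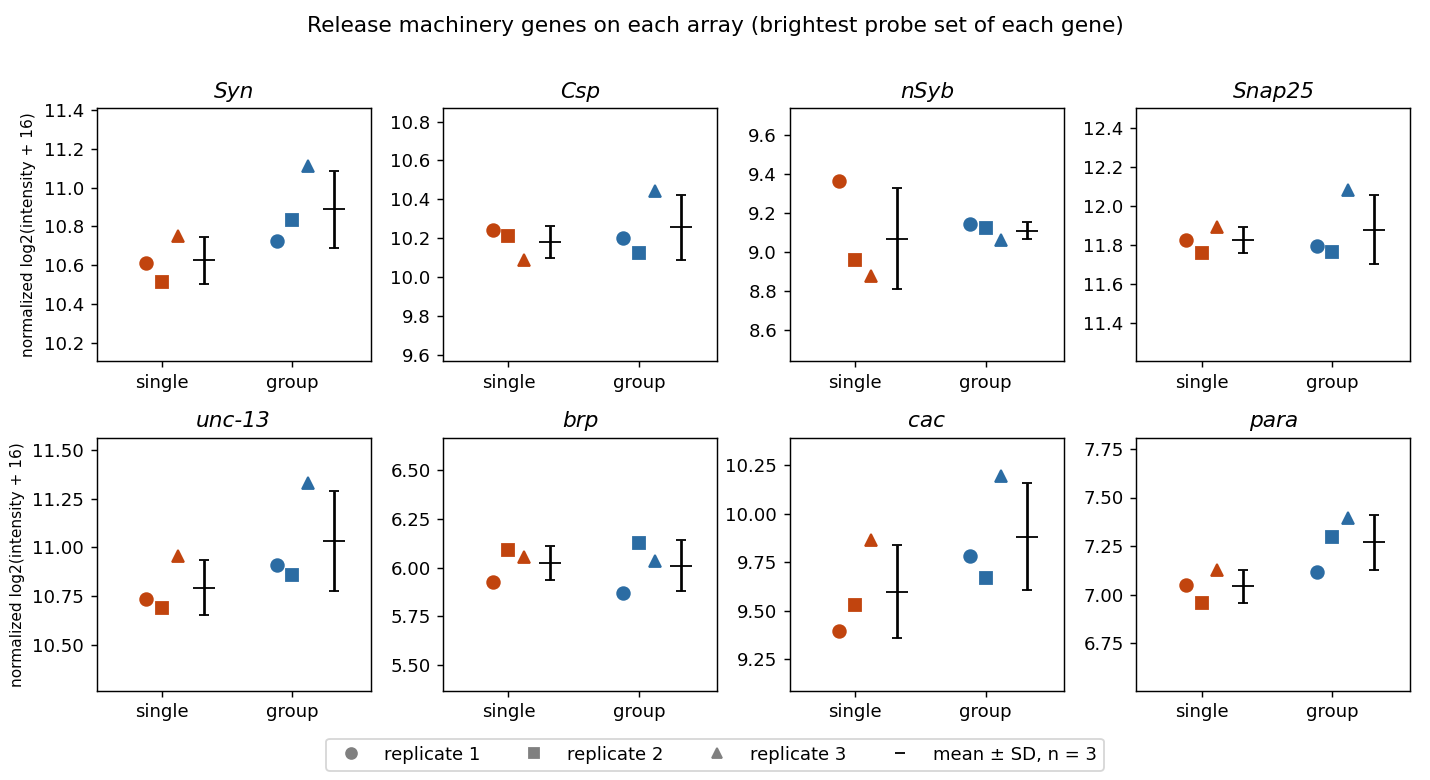
Normalized signal of the brightest probe set of 8 release machinery genes on each of the 6 arrays, on a log2(intensity + 16) axis that spans the same range in every panel. Each point is 1 array (red single-housed, blue group-housed, shapes for replicate numbers) and the black bar is the mean ± SD (n = 3). The group-housed array of replicate 3 is the highest point for Syn, Csp, Snap25, unc-13, cac and para, and the groups overlap in every panel.

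Among the vesicle proteins, Syn encodes synapsin, a phosphoprotein that tethers vesicles in the reserve pool. The deposited intensities of its probe set 1636378_a_at were 1780, 1622 and 1594 on single-housed and 1657, 1574 and 2049 on group-housed arrays. After normalization the log2 signals were 10.61, 10.51 and 10.75 for single-housed males and 10.72, 10.83 and 11.11 for group-housed males. The overlap came from single-housed replicate 3, which lay just above group-housed replicate 1. The means were 10.63 ± 0.12 and 10.89 ± 0.20 (SD, n = 3), a difference of -0.26 (SE 0.11). The group-housed signal was thus 1.20-fold higher, with a 95% interval of 1.01 to 1.42, and limma gave an adjusted p of 0.594. The exact 2-sided permutation test gave p = 0.2, where 3 arrays against 3 cannot go below 0.1. Without group-housed replicate 3, the highest array, the difference was -0.15, and with the arrays left at their deposited scale it was -0.07.

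Csp encodes cysteine string protein, a J-domain co-chaperone on the vesicle membrane that protects SNAP-25 from misfolding. Its log2 signals were 10.24, 10.21 and 10.09 for single-housed males and 10.20, 10.12 and 10.44 for group-housed males. The groups lay across each other, with a difference of -0.08 (SE 0.095, limma adjusted p 0.872). The 95% interval of the group-housed over single-housed ratio was 0.907 to 1.22. The difference was 0.11 at the deposited scale and 0.02 without group-housed replicate 3.

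The gene nSyb encodes neuronal synaptobrevin, the vesicle SNARE. Its probe set 1636838_a_at read 9.36, 8.96 and 8.88 on single-housed and 9.15, 9.12 and 9.06 on group-housed arrays. All group-housed values fell inside the single-housed range, whose SD of 0.26 was larger than the group-housed SD of 0.042. The difference of -0.04 (SE 0.12, limma adjusted p 0.956) was smaller than the single-housed SD. Unlike most of the other genes, nSyb had its highest value on single-housed replicate 1. That array also had the highest deposited intensity for nSyb, 747 against 420 to 545 on the other 5.

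Snap25 encodes the plasma membrane SNARE SNAP-25 and had the brightest of these probe sets. Deposited intensities ran from 3646 to 4070 on single-housed and from 3096 to 4082 on group-housed arrays. The normalized log2 signals were 11.83, 11.76 and 11.89 for single-housed males and 11.80, 11.76 and 12.08 for group-housed males. Group-housed replicate 3 stood above the other 5 arrays, which lay between 11.76 and 11.89. The difference was -0.05 (SE 0.090, limma adjusted p 0.912), with a 95% interval of the group-housed over single-housed ratio from 0.901 to 1.20. It was 0.15 at the deposited scale, 0.06 with median centring and 0.04 without group-housed replicate 3, so its sign was not settled.

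At the active zone, unc-13 encodes the priming factor that readies docked vesicles for fusion. Its deposited intensities were 1937, 1867 and 1822 on single-housed and 1900, 1606 and 2370 on group-housed arrays. On the normalized log2 scale the values were 10.74, 10.69 and 10.95 for single-housed males and 10.91, 10.86 and 11.33 for group-housed males. Single-housed replicate 3 lay above group-housed replicates 1 and 2, so the groups overlapped. The means of 10.79 ± 0.14 and 11.03 ± 0.26 (SD, n = 3) gave a difference of -0.24 (SE 0.13, limma adjusted p 0.668). The group-housed signal was 1.18-fold the single-housed one (95% interval 0.965 to 1.45). Without group-housed replicate 3 the difference was -0.09, and at the deposited scale it was -0.04.

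The gene brp encodes Bruchpilot, the ELKS-related scaffold that builds the electron-dense T-bar and clusters calcium channels beneath it. It had 4 probe sets. By mean signal, 1625489_at and 1636216_at lay at percentiles 56.2 and 55.3 of all probe sets, and 1629132_at and 1632538_at at 38.3 and 29.4. The brightest, 1625489_at, read 5.93, 6.09 and 6.06 on single-housed and 5.87, 6.13 and 6.03 on group-housed arrays, a difference of 0.01 (SE 0.12, limma adjusted p 0.987). The values interleaved completely. The probe set 1636216_at was at 0.07 (SE 0.18) and 1629132_at at -0.01 (SE 0.15), so the 3 tested probe sets of brp differed from each other by at most 0.07 in size. In the exact permutation test of these differences between probe sets, p was 0.9 or 1. The probe set 1629132_at had a mean of 4.88 in single-housed heads, near the filter cutoff of 4.69, where the added 16 compresses a change.

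The last brp probe set, 1632538_at, lay below the filter and was not tested. Its deposited intensities were 14.7, 10.3 and 21.0 on single-housed and 1.2, 11.1 and 3.7 on group-housed arrays. On the log2 scale its means were 4.93 ± 0.19 and 4.42 ± 0.43 (SD, n = 3), with overlapping groups and an exact permutation p of 0.2.

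The channel gene cac encodes cacophony, the pore-forming subunit of the calcium channel that triggers release at fly synapses. Its probe set 1640614_at read 762, 808 and 853 on single-housed and 853, 684 and 1109 on group-housed arrays as deposited. Normalized, the log2 signals were 9.40, 9.53 and 9.87 for single-housed males and 9.78, 9.67 and 10.19 for group-housed males. Replicate 3 was the highest array of each group. The difference of -0.28 (SE 0.16, limma adjusted p 0.680) had the largest size among the 10 tested probe sets, and its SDs of 0.24 and 0.28 were also among the largest. The group-housed signal was 1.22-fold the single-housed one (95% interval 0.949 to 1.56), and the difference was -0.13 without group-housed replicate 3. The second cac probe set, 1640033_at, lay below the filter with deposited intensities from 1.4 to 10.0 and was not tested.

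The gene para encodes the voltage-gated sodium channel that carries the action potential, and temperature-sensitive alleles of it paralyse flies. Deposited intensities were 132, 116 and 116 on single-housed and 121, 123 and 154 on group-housed arrays. The normalized log2 signals were 7.05, 6.96 and 7.13 for single-housed males and 7.12, 7.30 and 7.39 for group-housed males. The groups overlapped narrowly, between single-housed replicate 3 and group-housed replicate 1. The difference was -0.22 (SE 0.11, limma adjusted p 0.625), and the group-housed signal was 1.17-fold the single-housed one (95% interval 0.990 to 1.38). Of the 4 genes in the lower set, para moved least with the arrays left out, from -0.30 to -0.16.

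**Figure D2:**
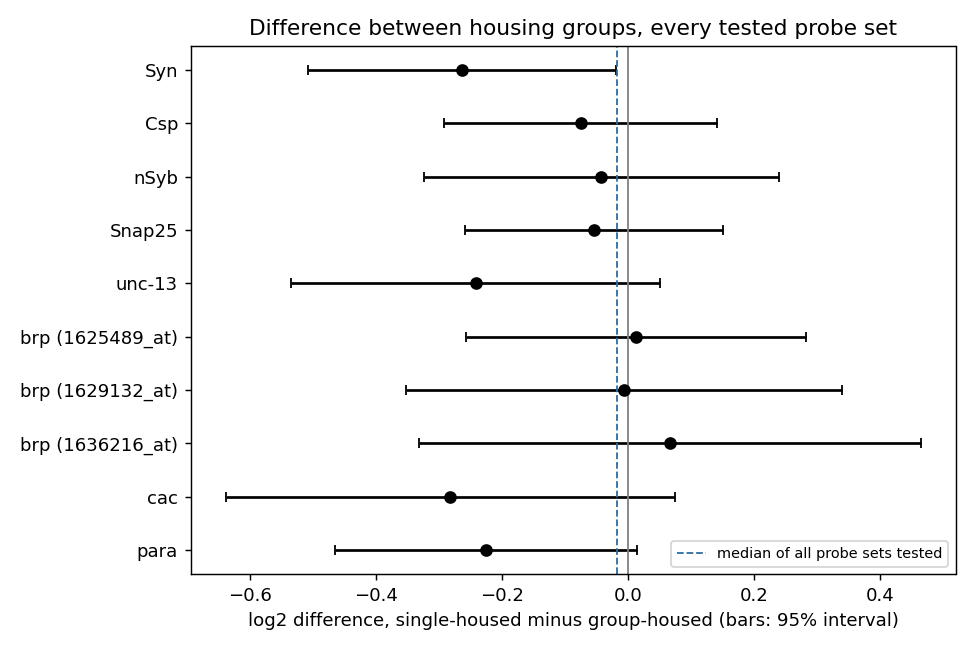
Difference between housing groups for the 10 tested probe sets, with the 95% interval of the limma fit (n = 3 arrays per group) on a log2 axis. The intervals of all probe sets other than Syn include 0, and the dashed line marks the median of all probe sets tested, -0.02.

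As a list, the 8 genes had a median of -0.15 with 7 of 8 below 0, where all 9605 genes tested had a median of -0.02 and 54.3% lay below 0. Array by array, the mean of the 8 genes relative to their own averages was -0.07, -0.13 and -0.02 on single-housed replicates 1 to 3. On group-housed arrays it was -0.02, 0.01 and 0.24. The first 2 group-housed arrays thus lay close to single-housed replicate 3, and group-housed replicate 3 stood apart, with 7 of 8 genes above their own mean. The same array had the lowest mean of the head fat body markers, 8.82 against 9.25 to 9.55 on the other 5, and the highest actin 3′ minus 5′ value. Its GAPDH and eIF-4a values, 1.06 and 1.74, were not the highest. The part of the fat body signal and of the control values in the result was not tested. Without that array the median of the list was -0.08, with 5 of 8 genes below 0. With the deposited scale the median was 0.03 and with median centring -0.06, while the median of all probe sets was 0.10 and 0.01 in those settings. In both of them 4 of the 8 genes, Syn, unc-13, cac and para, lay below 0.

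**Figure D3:**
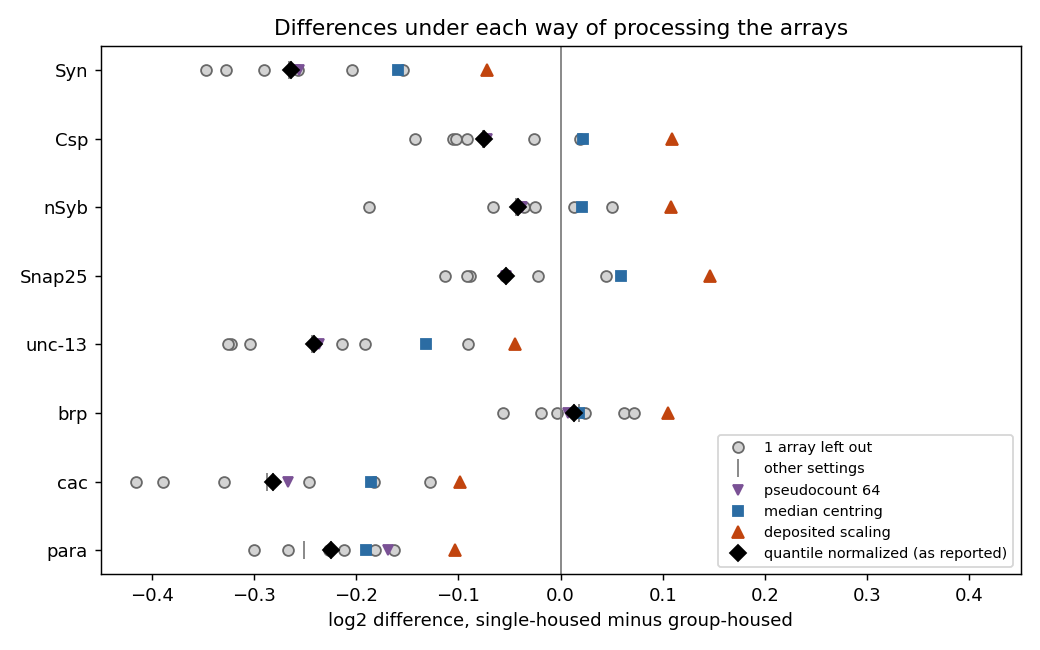
Differences of the brightest probe set of each gene, on a log2 axis, under the reported processing (black diamonds) and 14 alternatives, of which 6 leave out 1 array each. Syn, unc-13, cac and para stay left of 0 in every setting, from -0.42 to -0.04, while Csp, nSyb, Snap25 and brp lie on both sides. Alternatives that change only the filter, the eBayes trend or the replicate block cannot move a point.

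The sign of Syn, unc-13, cac and para was negative in all 14 alternatives, although none of the 4 passed the threshold in any of them (limma adjusted p 0.219 to 0.999). These 4 genes were grouped by their values in these same data, so the stable sign is a description. Alternatives that change only the filter, the eBayes trend or the replicate block cannot change a difference. Over the alternatives Syn ran from -0.35 to -0.07, cac from -0.42 to -0.10, para from -0.30 to -0.10 and unc-13 from -0.33 to -0.04. The remaining genes changed sign with the setting. Csp, nSyb and Snap25 lay above 0 at the deposited scale and with median centring, and brp lay below 0 when any of 3 arrays was left out.

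General markers of neurons give a reference within each array. Of the 8 neuronal marker genes tested, 7 were negative, with a median of -0.07, and 0 passed the threshold or reached unadjusted p 0.05 in limma. The sodium pump subunit gene nrv3 was at -0.17 (SE 0.082), the RNA-binding protein gene elav, expressed in neurons throughout the brain, at -0.17 (SE 0.12), and the amyloid precursor-like gene Appl at -0.10 (SE 0.10). Like the release machinery, the neuronal markers were highest on group-housed replicate 3, at 0.15 above their own averages. Relative to these markers the release machinery was at -0.09, 0.01 and -0.03 on single-housed and 0.01, 0.03 and 0.08 on group-housed arrays. The lowest group-housed and the highest single-housed value, 0.0099 and 0.0072, were nearly equal. With median centring the median of the neuronal markers was 0.01, and it was 0.10 at the deposited scale, as was that of all probe sets in each setting.

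None of the markers of other cell types in the head passed the threshold in the main limma fit, so their differences are given as values. At the deposited scale 1 head fat body marker passed it, and 2 did without group-housed replicate 2. The 6 photoreceptor markers tested had a median of -0.11, or 0.06 at the deposited scale, where the median of all probe sets was 0.10. Of these, Arr2 sat at the highest normalized value on all 3 group-housed arrays, so its difference could not be positive, and the other 5 were negative. All 7 glial markers tested were positive with a median of 0.09, which was 0.26 at the deposited scale, and 0 of them reached unadjusted p 0.05. The glial summed linear signal was 6547 to 7064 on single-housed and 5908 to 6651 on group-housed arrays. That of the neuronal markers was 8432 to 9664 and 9249 to 10383, so both overlapped between groups. Head fat body markers had a median of -0.0015 with 4 of 8 genes below 0, and 0.15 at the deposited scale. The 4 below 0 were Npc2b at -0.06 and the yolk protein genes Yp1, Yp2 and Yp3 at -0.58, -0.47 and -0.07. Yp1 (SE 0.38) and Yp2 (SE 0.44) varied widely between arrays, and deposited intensities of Yp2 ran from 3.1 to 47.6. Above 0 the list ran from 0.06 for apolpp to 1.63 for the storage protein gene Lsp2. The summed signal of the list was 18991 to 20205 on single-housed and 10651 to 17587 on group-housed arrays, with no overlap. The genes with the largest positive differences in that list were Lsp2, fit at 1.39 and Lsd-1 at 0.56. These 3 reached unadjusted p 0.05 in limma, as did 8.24% of all probe sets in either direction. Muscle markers had a median of -0.06 over 6 genes, which was 0.09 at the deposited scale and 0.0068 without single-housed replicate 2. The 5 hemocyte markers had a median of 0.22, or 0.32 at the deposited scale. Of them 2 reached unadjusted p 0.05 in limma with positive differences, and 1 of the 6 muscle markers with a negative one. The part of these cell types in the values of the release machinery was not tested.

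The wider presynaptic machinery was described through gene lists that go beyond the 10 genes. Of 23 other release genes tested, 0 passed the threshold and 2 reached unadjusted p 0.05 in limma, both with lower values in single-housed heads. Of all probe sets, 8.24% reached it in either direction and 3.67% with lower values. The list median was -0.09 with 19 of 23 genes negative. It was 0.10 at the deposited scale and 0.01 with median centring, as was the median of all probe sets. Rab3-GEF, an exchange factor for the vesicle GTPase Rab3, had log2 signals of 9.06, 8.996 and 9.30 for single-housed males and 9.38, 9.37 and 9.47 for group-housed males. These groups did not overlap, as for 14.2% of all probe sets, but they overlapped at the deposited scale. Its difference was -0.29 (SE 0.094, limma adjusted p 0.499, exact permutation p = 0.1). Another gene of the unc-13 family, unc-13-4A, was at -0.34 (SE 0.14) by its brightest probe set. Its other tested probe sets, both dim and near the filter cutoff, were at -0.36 (SE 0.26) and 0.23 (SE 0.24).

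On the opposite side, Syb, the synaptobrevin that is expressed beyond neurons, was at 0.19 (SE 0.083, limma adjusted p 0.611) by its brightest probe set, and its other probe sets were at 0.30 and 0.17. The brightest read 9.65, 9.75 and 9.77 for single-housed males and 9.53, 9.66 and 9.43 for group-housed males. Single-housed replicate 1 lay just below group-housed replicate 2. At the deposited scale the groups of this probe set did not overlap, at 797 to 952 on single-housed and 657 to 712 on group-housed arrays. The median of all probe sets was itself at 0.10 there, and the other Syb probe sets overlapped at both scales. The neuronal counterpart nSyb was at -0.04. Syngr, which encodes the vesicle membrane protein synaptogyrin, was at -0.15 (SE 0.073), with groups that did not overlap after normalization. At the deposited scale its groups overlapped and the means turned, at 1702 for single-housed and 1674 for group-housed arrays.

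Among partners of the channels, 0 of 11 genes passed the threshold. Only stj reached unadjusted p 0.05 in limma, as did 8.24% of all probe sets in either direction. The gene stj encodes straightjacket, the alpha2delta subunit that brings cac channels to the terminal. Its log2 signals were 9.12, 9.24 and 9.19 for single-housed males and 9.40, 9.39 and 9.51 for group-housed males. These did not overlap after normalization, as for 14.2% of all probe sets, although they did at the deposited scale, and the spread within each group was small, with SDs of 0.061 and 0.065. The difference of -0.25 (SE 0.075, limma adjusted p 0.480, exact permutation p = 0.1) was of a size with that of cac. The auxiliary sodium channel subunit genes Teh4, Teh2 and Teh1 were at -0.24, -0.12 and 0.14. The channel partner list had a median of -0.02 and 7 of 11 genes below 0. At the deposited scale its median was 0.09 with 2 of 11 below 0, while that of all probe sets was 0.10.

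Vesicle recycling by endocytosis follows release. Of 13 endocytosis genes tested, 12 lay below 0, with a median of -0.09, and 0 reached unadjusted p 0.05 in limma. Dap160, the fly intersectin, was at -0.20 (SE 0.092) by its brightest probe set. Its other probe set, dim and near the filter cutoff, was at -0.21 (SE 0.21). AP-2sigma, a subunit of the clathrin adaptor, was at -0.16 and the clathrin heavy chain gene Chc at -0.10. Amph, which in the fly is known for the membrane tubules of muscle, was at -0.09. Of the 5 vesicular transporter genes, 4 lay below 0 with a median of -0.09. The GABA transporter gene VGAT was at -0.16, prt at -0.12 and the acetylcholine transporter gene VAChT at -0.09. The glutamate transporter gene VGlut was at 0.15 (SE 0.23) by its brightest probe set. Its other probe set, at -0.37, lay below the filter and was not tested. At the deposited scale the medians of the endocytosis and transporter lists were 0.08 and 0.08, and none of their genes passed the threshold there. Across all probe sets the median at that scale was 0.10.

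**Figure D4:**
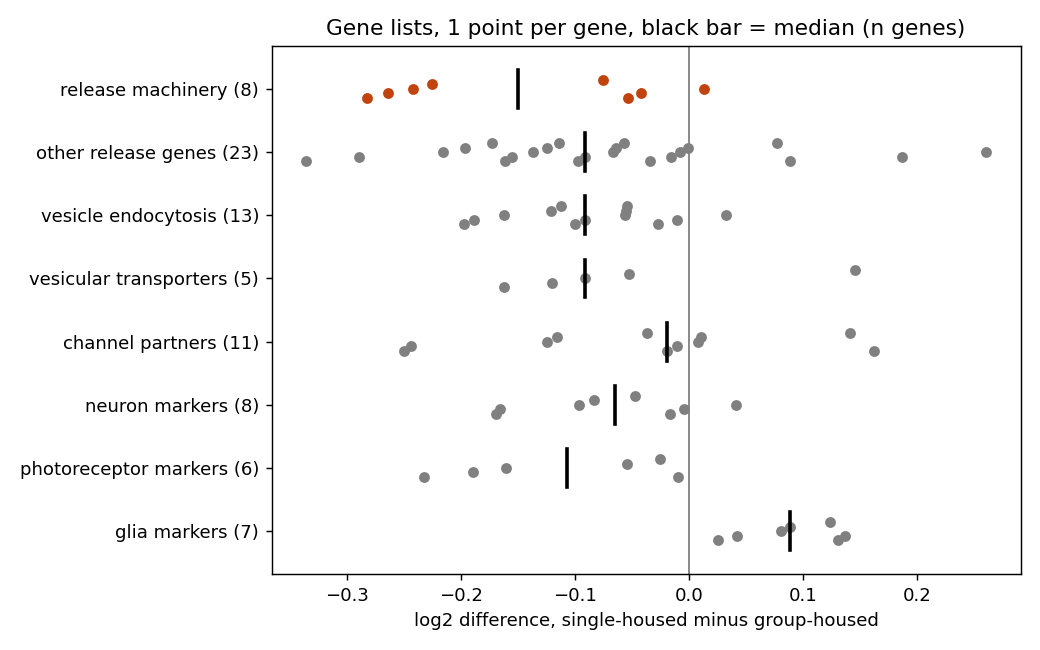
Log2 difference between housing groups, 1 point per gene (brightest probe set), for the release machinery (8 genes, red), 4 related presynaptic lists and markers of neurons, photoreceptors and glia, with the median of each list as a black bar. The release machinery splits into 4 genes at -0.28 to -0.22 and 4 at -0.08 to 0.01, and the medians of the lists drawn here other than glia lie between -0.15 and -0.02.

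The genes with the profile most like the mean of the 8 release machinery genes over the 6 arrays were Tmtc2, Gp150 and CG8229, with Pearson r of 0.997, 0.997 and 0.996. Among 9505 genes compared, 266 had r above 0.9. These profiles share the arrays and their normalization, and in the mean profile group-housed replicate 3 stood apart, so the likeness is a description. The differences of the 3 genes were -0.23, -0.12 and -0.30, and their limma adjusted p were 0.646, 0.694 and 0.606.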

How the data were processed

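The data are 6 arrays, 3 per housing group, grouped by their titles. Per the labels' protocols, RNA was extracted with Trizol and labelled with biotin by the standard Affymetrix procedure. The deposited values are linear intensities, 1 per probe set and array. The labels and headers used here do not give the authors' summarisation, background correction or scaling, or any scan batch.

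Control probe sets (183) were left out. Values were taken as log2(intensity + 16). Array medians on that scale differed by 0.24, above a limit of 0.2, so quantile normalization was applied to all 6. A filter then dropped the dimmest 30% by mean signal and left 13138 probe sets. The test was limma (3.58.1, R 4.3.3) with lmFit and an intensity trend in eBayes, 2-sided, with exact permutation tests for single values. The fit was tested on simulated data. Changes of dim probe sets are understated on this scale, and the number of arrays limits the precision. The labels do not say whether the pools of a group came from separate cultures, so p-values measure the spread between these samples.

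Of 13647 probe sets that the platform annotation gave 1 gene, 13544 had an ID in the RefSeq gene table (assembly Release 6 plus ISO1 MT), and 402 others had several genes and 4720 none. A gene in a list is represented by its probe set with the highest mean, and up to 4 genes with the smallest p were named per list. The members, lists and tests were chosen with earlier results of these data known. Same-numbered arrays were checked for pairing. Their deviations from the group means correlated at 0.032, 0.11 and 0.33, not all above 0.1, so the numbers were not taken as pairs. Each replicate 3 array correlated negatively, at -0.25 to -0.14, with replicates 1 and 2 of the other housing group. Replicates 1 and 2 correlated across numbers at 0.12 and 0.16. A component shared by the replicate 3 arrays, if any, was left in the main fit, and its source was not tested. The alternatives tried were other scalings (none beyond the deposited one, or median centring), other pseudocounts (1 or 64), other filters (none, or 50%), eBayes with no trend, a block for the replicate number, the mean over a gene's probe sets, and leaving out each array.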

Additional observations from a re-analysis of the deposited data

How the results depend on the processing

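The count of release machinery probe sets past the threshold was 0 in all 14 alternatives with a test (limma). At unadjusted p 0.05 it ran from 0 to 3, while the calls over all probe sets ran from 0 to 78. The median of the 8 genes, -0.15, was 0.030 at the deposited scaling and -0.057 with median centring. Leaving out single arrays gave -0.20 to -0.079, the latter without group-housed replicate 3. Alternatives that change only the filter, the eBayes trend or the replicate block cannot change a sign. Of 139 single probe set values under alternatives, those settings included, 18 had the other sign. At the deposited scaling these were 0.049 for brp 1629132_at, 0.11 for Csp, 0.11 for nSyb and 0.15 for Snap25, and with median centring 0.022 for Csp, 0.021 for nSyb and 0.059 for Snap25. With 1 array left out, the ranges were -0.057 to 0.071 for brp 1625489_at, -0.035 to 0.028 for 1629132_at and -0.037 to 0.22 for 1636216_at, -0.14 to 0.019 for Csp, -0.19 to 0.050 for nSyb and -0.11 to 0.044 for Snap25. The cause was not tested. With the mean of each gene's tested probe sets the median of the 8 genes stayed at -0.15. Only brp, the highest of the 8 genes, had more than 1 tested probe set, so this alternative could hardly move the median. The replicate number as a block left every difference and the median of -0.15 as they were. With it, 0 release machinery probe sets passed the threshold and 3 reached unadjusted p 0.05 in limma. Calls over all probe sets were 32 against 2 without the block. The block lowered the SE of cac from 0.16 to 0.074, of unc-13 from 0.13 to 0.066 and of Syn from 0.11 to 0.069. That of para went from 0.105 to 0.1, and that of brp 1629132_at rose from 0.15 to 0.17. Dim probe sets, such as brp 1629132_at, are limited by their signal over background.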
